A study of Mus musculus with 6 samples.

Results

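The 40 antiviral interferon-stimulated genes described here were compared between mouse intestinal stem cells with and without a short exposure to interferon gamma (IFNg). Chosen by symbol, they form a list of sensors, nucleases, entry blockers and modifier enzymes. Of these, 39 were found by symbol in the table of 23127 genes, Trex1 expression was not analysed here, and 38 had a mean of at least 10 scaled counts over the 6 libraries and were tested. A scaled count is a gene's reads in a library divided by 1 size factor for that library. Just inside that limit were Ifit3 (mean 11.5) and Ifitm1 (11.8), and just outside it was Mx1 (6.80). Ifit1, Ifit3 and Mx2 were below 10 scaled counts on average in untreated cells and reached the limit through the IFNg libraries, and Ifitm1 through the untreated ones, so counts and medians over tested members are given only as a description.

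The study asked how the transcriptome of intestinal stem cells responds to IFNg. The starting material was small intestine of Lgr5-GFP mice on C57BL/6, which carry GFP as a reporter of Lgr5, a receptor gene of crypt base stem cells, and the GFP-high fraction was sorted. In the treated group the sorted cells stood for 1.5 h in medium with EGF, Noggin and R-spondin1 and 1 ng/ml IFNg. The other group is labelled as having had no treatment, and its titles carry the same time tag. That label does not say whether these cells also stood in the medium. If they did not, effects of the culture and of IFNg cannot be told apart. There were 3 libraries per group, named here by the end numbers of their titles: untreated 5, 1 and 9, and IFNg 6, 2 and 10. Libraries 5 and 6 carry the title tag GFP1 and the other 4 the tag GFP3, whose meaning is not given. The number, age and sex of the mice and whether animals were pooled are not stated, and a p-value here reflects no more than the spread among these libraries, which may be technical. In these sorted bulk samples, fewer cells of a type and less RNA per cell cannot be told apart.

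Interferons induce antiviral genes along 2 routes. Type I and type III interferons activate ISGF3, a complex with Stat2 and Irf9 that binds the interferon-stimulated response element (ISRE) in promoters. IFNg, the type II interferon of T and natural killer cells, acts through the gamma-activated site (GAS) and induces Irf1, which in turn can act on ISRE-like elements. Many classical antiviral genes are driven mainly through ISGF3, and some respond to either route.

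After 1.5 h of IFNg, 3 of the 38 tested antiviral genes rose and 0 fell in limma at an adjusted p under 0.05. The 3 were Rtp4, a receptor chaperone that also restricts flaviviruses, Xaf1, which counters the apoptosis inhibitor XIAP, and Cmpk2, a mitochondrial nucleotide kinase. Of all 16095 tested genes 0.416% were called higher and 0.0124% lower. The other 35 antiviral genes did not pass, among them Isg15, Rsad2, Mx2 and the tested Ifit genes. Log2 changes were above 0 for 34 of the 38, against 42.9% of all tested genes, and their median was 0.70 against -0.078 for all tested genes. In 16 of the 38 every IFNg library lay above every untreated one, which held for 8.13% of all tested genes, and 0 showed the opposite order, which held for 5.06%. Before adjustment, 14 members lay higher and 0 lower at a p under 0.05, beside 8.46% of all tested genes higher.

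**Figure D1:**
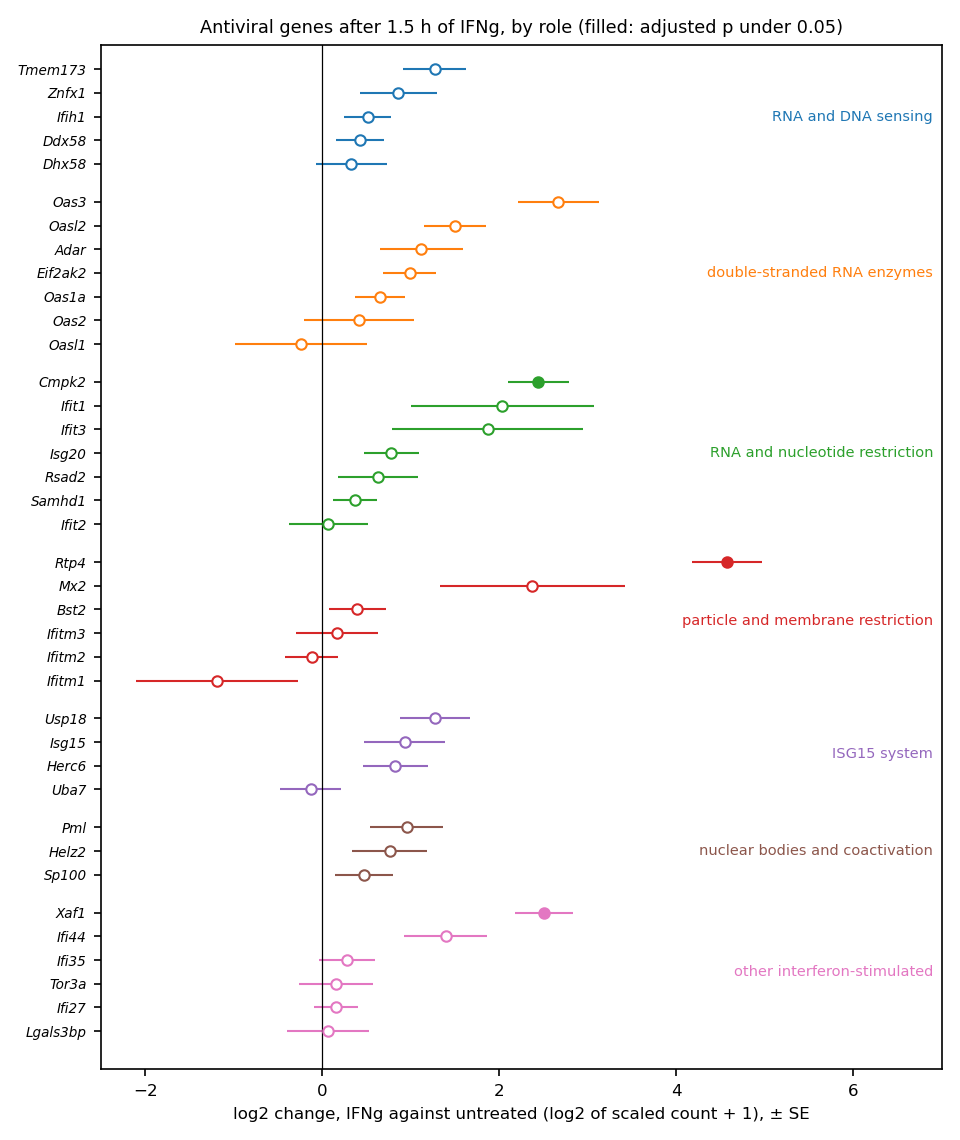
Log2 change of each of the 38 tested antiviral genes after 1.5 h of IFNg (x axis, log2 of scaled count + 1, bars are ± SE of the limma fit, 3 libraries per group), grouped by role on the y axis, with filled points for an adjusted p under 0.05. Rtp4 at 4.57, Xaf1 at 2.51 and Cmpk2 at 2.44 are the filled points, and most other genes lie between 0 and 1.5.

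Rtp4 (mm10 chromosome 16, 23520291 to 23614222, plus strand, protein-coding) had 126, 74.0 and 50.5 scaled counts in untreated 5, 1 and 9, and 2300.1, 2067 and 1384 in IFNg 6, 2 and 10. The lowest IFNg library thus lay far above the highest untreated one. The mean went from 83.6 ± 38.9 to 1917 ± 476 (SD, n = 3 each), a 22.9-fold rise (limma log2 change 4.57 ± 0.396 SE, adjusted p = 7.75e-04). Rtp4 passed in each of the 14 alternative fits, with adjusted p up to 0.00843. Its span overlaps that of Masp1 on the other strand, with 0 exon bases shared. It shares 13.9% of its exon bases with Gm45338, so a part of its reads may be missing or misplaced.

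Xaf1 (chromosome 11, 72301629 to 72313733, plus strand, protein-coding) stood at 118, 93.8 and 101 scaled counts in the untreated libraries and at 693, 711 and 426 in IFNg 6, 2 and 10. The untreated values were within a narrow range, and the groups did not overlap. The rise was 5.85-fold (log2 change 2.51 ± 0.330 SE, limma adjusted p = 0.0124). It was not called without untreated 1 (0.0754), untreated 9 (0.0743) or IFNg 2 (0.126), with a range over all alternatives of 2.48e-12 to 0.126.

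Cmpk2 (chromosome 12, 26469204 to 26479837, plus strand, protein-coding) had 393, 267 and 185 scaled counts without IFNg and 1258, 1829 and 1352 with it, again with no overlap. The mean rose 5.25-fold, from 282 ± 105 to 1479.7 ± 306 (log2 change 2.44 ± 0.344 SE, limma adjusted p = 0.0189). The call was lost without untreated 1 (0.106), untreated 9 (0.0839), IFNg 2 (0.146) or IFNg 10 (0.0793), with a range of 1.59e-08 to 0.146. Its neighbour Rsad2 (chromosome 12, 26442746 to 26456452, minus strand) encodes viperin, which makes a chain-terminating nucleotide from CTP, and the starts of the 2 genes lie 12752 bases apart. Rsad2 was at 104, 66.2 and 186 without IFNg and at 185, 122 and 211 with it (log2 change 0.63 ± 0.449 SE, adjusted p = 0.849), so its groups overlapped. Rsad2 was singled out after its values were seen, as the neighbour of a gene that rose.

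**Figure D2:**
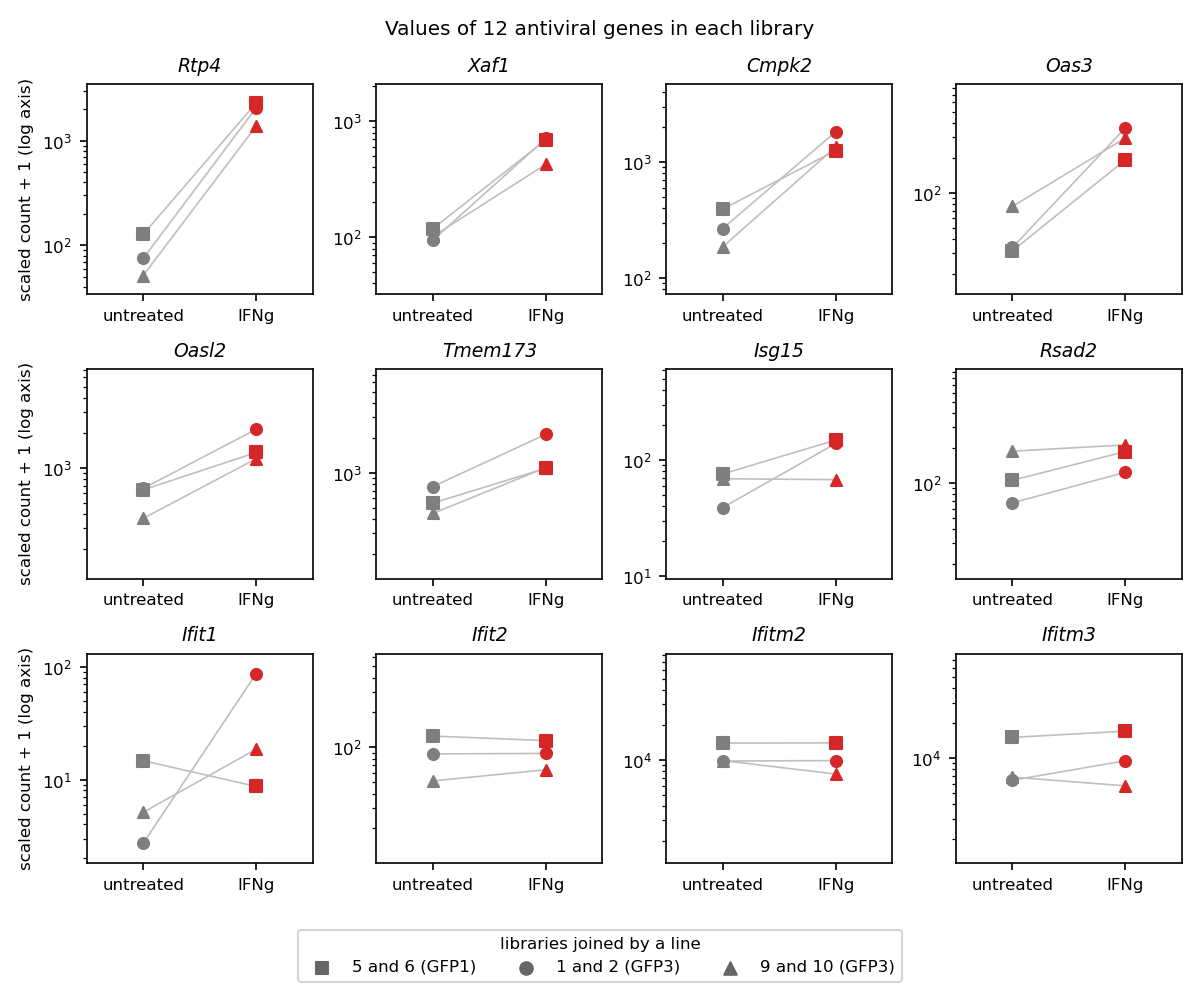
Scaled counts (+ 1, log axis) of 12 antiviral genes in each of the 3 untreated and 3 IFNg libraries, with lines joining libraries of neighbouring title numbers and marker shapes for the title tags. In Rtp4, Xaf1, Cmpk2 and Oas3 all IFNg points lie above all untreated points, and in Ifit2, Ifitm2 and Ifitm3 the groups overlap.

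Promoters of the antiviral genes were examined for both elements. The choice of members did not use sequence, but they were chosen as interferon-stimulated genes, a class driven in part through the ISRE. Their share of ISRE matches is thus not independent of that choice. Windows from 250 bases before to 50 bases after a gene's start, from RefSeq (GRCm38.p6), were matched for 31 of the 40 genes, of which 30 were tested and 1 was Trex1. Those with none were Dhx58, Tmem173, Oas2, Mx1, Mx2, Rtp4, Usp18, Ifi27 and Tor3a. The ISRE was searched as GAAA, any 2 bases and GAAA again, and the GAS as TTCNNNGAA, on both strands, and the letters of the 2 motifs may overlap. An ISRE match was in 12 of the 31 genes (38.7%), against 3.99% of all 27025 genes with a window. A GAS match was in 9 (29.0%), against 9.55%. Both were present in 4 genes (Oas1a, Eif2ak2, Bst2 and Ifitm3), against 0.614%. Because a match is only a match of letters, these shares describe the windows and no more.

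The following windows are shown because they belong to the called genes with a window (Xaf1, Cmpk2), to the uncalled neighbour of a called gene (Rsad2), to the uncalled gene with the largest change (Oas3) and to the most abundant antiviral genes (Ifitm2, Ifitm3). Rsad2 and Oas3 were added after their values were seen. Capitals mark ISRE or GAS matches, and each sequence runs 5′ to 3′ on the gene's strand with 250 bases before the start.
Xaf1, chr11:72301379-72301678, plus strand: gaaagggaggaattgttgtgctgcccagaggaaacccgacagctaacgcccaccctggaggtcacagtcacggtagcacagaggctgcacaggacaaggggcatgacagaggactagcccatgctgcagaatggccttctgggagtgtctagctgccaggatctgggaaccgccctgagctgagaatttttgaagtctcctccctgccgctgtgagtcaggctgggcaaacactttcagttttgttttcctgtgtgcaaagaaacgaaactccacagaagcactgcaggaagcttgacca
Cmpk2, chr12:26468965-26469264, plus strand: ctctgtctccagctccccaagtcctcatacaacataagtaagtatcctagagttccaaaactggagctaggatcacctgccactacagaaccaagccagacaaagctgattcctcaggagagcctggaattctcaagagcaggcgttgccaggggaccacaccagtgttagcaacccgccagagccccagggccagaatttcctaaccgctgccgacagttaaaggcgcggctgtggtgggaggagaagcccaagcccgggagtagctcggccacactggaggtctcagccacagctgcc
Rsad2, chr12:26456403-26456702, minus strand: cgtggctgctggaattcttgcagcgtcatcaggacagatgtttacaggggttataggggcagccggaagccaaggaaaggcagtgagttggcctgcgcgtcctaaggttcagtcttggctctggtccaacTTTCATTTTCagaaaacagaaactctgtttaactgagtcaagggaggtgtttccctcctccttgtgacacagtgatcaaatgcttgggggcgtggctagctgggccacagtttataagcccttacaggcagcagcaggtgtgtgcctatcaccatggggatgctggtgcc
Oas3, chr5:120777610-120777909, minus strand: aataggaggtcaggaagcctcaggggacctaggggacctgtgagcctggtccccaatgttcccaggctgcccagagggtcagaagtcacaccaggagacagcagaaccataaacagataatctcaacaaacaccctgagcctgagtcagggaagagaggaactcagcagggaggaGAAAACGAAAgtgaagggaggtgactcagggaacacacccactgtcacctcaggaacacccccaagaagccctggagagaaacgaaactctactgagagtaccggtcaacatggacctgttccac
Ifitm2, chr7:140955912-140956211, minus strand: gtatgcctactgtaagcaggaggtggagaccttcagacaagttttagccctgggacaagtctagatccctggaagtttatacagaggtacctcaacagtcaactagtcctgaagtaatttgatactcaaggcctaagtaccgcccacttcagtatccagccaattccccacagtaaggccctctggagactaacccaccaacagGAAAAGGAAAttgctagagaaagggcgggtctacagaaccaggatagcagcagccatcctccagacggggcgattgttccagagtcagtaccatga
Ifitm3, chr7:141010695-141010994, minus strand: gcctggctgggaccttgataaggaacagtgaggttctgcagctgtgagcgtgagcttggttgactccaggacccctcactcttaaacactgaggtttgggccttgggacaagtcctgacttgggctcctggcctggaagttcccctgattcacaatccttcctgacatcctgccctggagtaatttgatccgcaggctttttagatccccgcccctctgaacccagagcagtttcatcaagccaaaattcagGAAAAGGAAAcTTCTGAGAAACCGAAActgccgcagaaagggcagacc

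Neither Xaf1 nor Cmpk2 had an ISRE or GAS match of these letters in its window. Rsad2, which did not pass, had an ISRE match at -120 to -111 relative to the start at position 0, and Oas3 had one at -75 to -66. Ifitm3 had ISRE matches at 2 to 11 and 19 to 28 and a GAS match at 13 to 21 that overlaps the second ISRE. Ifitm2 had 1 ISRE match, at -46 to -37. Among tested genes with a window, the median log2 change was 0.64 for the 12 with an ISRE match and 0.77 for the 18 without one. It was 0.39 for the 9 with a GAS match and 0.82 for the 21 without. These medians are a description, with no test of the difference, and the genes with an ISRE match include Ifit1 and Ifit3.

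Sensors of foreign nucleic acid start the interferon response inside an infected cell. Of the 5 tested, 0 passed in limma, the median log2 change was 0.51, and 5 of 5 were above 0, against 42.9% of all tested genes. Tmem173, the gene of the DNA-sensing adaptor STING and the most abundant of the 5, had 547, 759.7 and 445 scaled counts without IFNg and 1092, 2144 and 1107 with it, and the groups did not overlap. Its log2 change was 1.27 ± 0.356 SE (limma adjusted p = 0.296), and it passed in DESeq2 (adjusted p = 0.0282), which called 3.22% of all genes higher. Its range over the alternatives was 0.0282 to 0.949. The cytosolic RNA helicases stood lower in change: Ifih1 (MDA5) had a log2 change of 0.51 and Ddx58 (RIG-I) one of 0.43, each without overlap between the groups. Dhx58 (LGP2), which tunes the other 2 helicases, was at 151, 127 and 81.4 without IFNg and at 101, 197 and 156 with it, so the groups overlapped, and IFNg 6 lay below untreated 5. Znfx1, a helicase that binds double-stranded RNA at mitochondria, went from 674 ± 335 to 1214 ± 566 (adjusted p = 0.649).

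Enzymes that act on double-stranded RNA stood first among the 7 role groups by median log2 change, at 0.98. In limma 0 of 7 passed and 5 were higher at an unadjusted p under 0.05 (8.46% of all genes), and DESeq2 called 3 higher (3.22% of all genes). The oligoadenylate synthetases sense double-stranded RNA and make short 2-5A oligomers. Oas3 (chromosome 5, 120753098 to 120777661, minus strand), the form with the strongest affinity for long double-stranded RNA, had 30.5, 32.7 and 75.2 scaled counts without IFNg and 191, 362 and 295 with it. All IFNg libraries lay above all untreated ones. Its log2 change of 2.66 ± 0.458 SE missed the threshold in limma (adjusted p = 0.0562), in edgeR (0.0876) and with neighbouring title numbers as a block (0.0539). It passed in DESeq2 (1.21e-05), with a pseudocount of 10 (0.0393), with TMM scaling (0.0343), with the tag as a covariate (0.0205), in the GFP3 libraries alone (0.00876) and without untreated 5 (0.0435) or untreated 9 (0.0445). The highest value was 0.340, without IFNg 2.

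The neighbours of Oas3 showed smaller differences. Oas2, whose start lies 27808 bases from that of Oas3, had 19.0, 11.2 and 47.4 scaled counts without IFNg and 25.6, 24.1 and 40.4 with it, in overlapping groups. Oas1a, 129860 bases away, had 416, 409.5 and 439.8 and then 797, 704 and 514 (log2 change 0.65, adjusted p = 0.539), without overlap. Oas1a has several close copies in the mouse, and the authors' table keeps reads with more than 1 alignment in a separate row, so its level is uncertain. In the other synthetase cluster of chromosome 5, Oasl2, an active synthetase with a ubiquitin-like tail, was at 642, 659.9 and 364 without IFNg and at 1349, 2138 and 1191 with it, without overlap. Its log2 change was 1.49 ± 0.350 SE (limma adjusted p = 0.222, DESeq2 0.00499, GFP3 libraries alone 0.0338). Oasl1, 26304 bases away, restrains translation of Irf7 and had 44.2, 120.4 and 139 without IFNg and 24.7, 189 and 93.9 with it. The 2 groups of Oasl1 overlapped widely, and its log2 change of -0.24 turned positive in DESeq2 (0.058) and in the GFP3 libraries (0.042).

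Eif2ak2 encodes PKR, the kinase that stops translation when double-stranded RNA is present. It had 997, 1216 and 733 scaled counts without IFNg and 2024, 2271 and 1501 with it, each IFNg library above each untreated one. The log2 change was 0.98 ± 0.299 SE (limma adjusted p = 0.318, DESeq2 0.0432), and the adjusted p ran from 0.0432 to 0.960 over the alternatives. Adar, which edits adenosines in double-stranded RNA, was at 637, 1613 and 1364 and then at 1291, 3492 and 3181. Its groups overlapped, the GFP1 library being the lowest under both conditions, while the log2 difference was at least 1.02 within each pair. Adar passed in the GFP3 libraries alone (limma adjusted p = 0.0204, where 8.27% of all genes were called higher), but not in the fit of all 6 libraries (0.507). It shares 16.8% of its exon bases with Chrnb2 on the other strand, and the library chemistry does not mark strand, so the split between them is uncertain.

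Genes that bind viral RNA, degrade nucleic acid or limit nucleotides had 1 of 7 tested members that rose, Cmpk2, beside 0.416% of all tested genes. The Ifit genes, whose proteins hold back translation of viral mRNAs, lie together on chromosome 19 and were low. Ifit1 was at 13.7, 1.72 and 4.12 scaled counts without IFNg and at 7.68, 85.8 and 17.5 with it, so IFNg 2 stood apart and IFNg 6 lay within the untreated range. Ifit2 was at 124, 86.9 and 50.5 and then at 113, 87.7 and 63.2, a log2 change of 0.07 ± 0.448 SE (adjusted p = 0.982) in groups that overlapped throughout. Ifit3 was at 0, 10.3 and 7.21 and then at 28.1, 13.5 and 9.65, that is 19 reads in the untreated group and 58 in the IFNg group. The 0 in untreated 5 allows up to 3 reads, or 3.16 scaled counts.

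Isg20, an exonuclease of single-stranded RNA, had 533, 702 and 995 scaled counts without IFNg and 1052, 1383 and 1295 with it, without overlap (log2 change 0.78, adjusted p = 0.449). Samhd1, which hydrolyses deoxynucleotides and was the most abundant of this group, was at 1037, 974 and 996 and then at 1481, 1200.4 and 1219.6. The untreated values of Samhd1 were close together and the IFNg values all lay above them, but the log2 change was 0.37 ± 0.247 SE (adjusted p = 0.826).

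Proteins that act on virus particles and membranes had 1 of 6 tested members that rose, Rtp4, beside 0.416% of all tested genes. The others had log2 changes of -1.19 to 2.37. Ifitm2 and Ifitm3, which block fusion of entering viruses, were the most abundant antiviral genes and were high without IFNg. Ifitm2 had 13939, 9754 and 9848 scaled counts without IFNg and 13995, 9855 and 7543 with it (log2 change -0.12 ± 0.302 SE, adjusted p = 0.955). Ifitm3 had 15032, 6427 and 6838 and then 17050.2, 9471 and 5752 (log2 change 0.16 ± 0.459 SE, adjusted p = 0.958). Both overlapped between the treatments, and for both the 2 GFP1 libraries stood above the 4 GFP3 libraries. Ifitm2 shares 40.9% of its exon bases with Gm45717 on the same strand, so its level is uncertain.

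Ifitm1, 11234 bases from Ifitm2 by their starts, was at 9.48, 7.74 and 33.0 scaled counts without IFNg and at 2.56, 3.86 and 14.0 with it. It was the lowest change of the 38 (log2 -1.19 ± 0.918 SE, adjusted p = 0.864), and the groups overlapped. Bst2, the tether that holds budding virions, was at 299, 243 and 289 and then at 412, 453 and 256 (log2 change 0.39, adjusted p = 0.876), with IFNg 10 inside the untreated range. Mx2 was at 0, 7.74 and 15.4 and then at 32.4, 24.1 and 22.8 (log2 change 2.37 ± 1.05 SE, adjusted p = 0.541). It is a dynamin-like GTPase that the annotation lists as a polymorphic pseudogene. Mx1, its relative and too low to be tested, had 4 reads in the untreated group and 42 in the IFNg group, each summed over 3 libraries.

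The ISG15 system attaches the ubiquitin-like protein ISG15 to other proteins. Of its 4 tested members 0 passed and the median log2 change was 0.88. Isg15 itself was at 74.8, 37.9 and 68.0 scaled counts without IFNg and at 148, 138 and 66.7 with it, so IFNg 10 lay within the untreated range (log2 change 0.93 ± 0.462 SE, adjusted p = 0.636). Usp18, which removes ISG15 and dampens type I interferon signalling at Ifnar2, was at 32.7, 30.1 and 44.3 and then at 74.2, 104 and 83.4. Its groups did not overlap, and its log2 change of 1.27 ± 0.392 SE did not pass (limma adjusted p = 0.324, DESeq2 0.0506). Herc6, the main ISG15 ligase of the mouse, had a log2 change of 0.82 (adjusted p = 0.544) without overlap, and shares 13.7% of its exon bases with Gm45193. Uba7, the activating enzyme and the most abundant of the 4, was at 753, 1567 and 1180.3 and then at 792, 1254 and 1059.9, in overlapping groups (log2 change -0.13, adjusted p = 0.955).

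Nuclear body and coactivator genes had 0 of 3 called. Pml, the scaffold of nuclear bodies that trap viral genomes, was at 639, 1728 and 1219 scaled counts without IFNg and at 1597, 3174 and 1928 with it. Its groups overlapped, with untreated 1 above IFNg 6, while IFNg was higher within each pair (log2 change 0.95 ± 0.415 SE, adjusted p = 0.532). Sp100, another component of these bodies, was at 140.1, 163 and 192 and then at 252, 263 and 176 (log2 change 0.47, adjusted p = 0.842). Helz2, a helicase coactivator of nuclear receptors, went from 1279 ± 683 to 2077 ± 706 (adjusted p = 0.717).

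Of the 6 remaining interferon-stimulated genes Xaf1 rose, beside 0.416% of all tested genes, and 5 did not pass. Ifi44 was at 75.8, 49.0 and 44.3 scaled counts without IFNg and at 119, 264 and 97.4 with it, without overlap (log2 change 1.39 ± 0.468 SE, adjusted p = 0.355). Lgals3bp, a secreted ligand of galectin-3 and the most abundant of the 6, was at 3915, 9066 and 5867 and then at 3288, 10816 and 6708. Its groups overlapped almost completely (log2 change 0.07, adjusted p = 0.985). Log2 changes were 0.28 for Ifi35, a partner of Nmi, 0.15 for Ifi27 and 0.15 for Tor3a, a torsin ATPase of the endoplasmic reticulum, each with overlapping groups.

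Levels were compared between genes per kb of exon, with exon lengths from GENCODE M21 (GRCm38). Without IFNg the highest were Ifitm2 at 17069 ± 3648 scaled counts per kb and Ifitm3 at 13911 ± 7159, which did not differ beyond their spread. They were followed by Lgals3bp at 2207 ± 913, Ifi35 at 797 ± 141 and Ifi27 at 521 ± 56.6. At the low end were Mx2 (2.14 ± 2.14), Ifit1 (2.45 ± 2.39), Ifit3 (3.35 ± 3.03), Oas2 (5.81 ± 4.28) and Oas3 (6.53 ± 3.56), whose order lies within their spread. With IFNg, Rtp4 moved from place 23 of 38 (39.2 ± 18.2) to place 5 (899.6 ± 224), Cmpk2 from place 22 (67.7 ± 25.1) to 13 (355 ± 73.5) and Xaf1 from place 27 (22.2 ± 2.65) to 23 (130.0 ± 34.0). Places 1 to 4 were held by the same genes in both groups. Together, the 38 genes took 0.124% to 0.154% of reads in genes in the untreated libraries and 0.149% to 0.204% in the IFNg libraries.

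**Figure D3:**
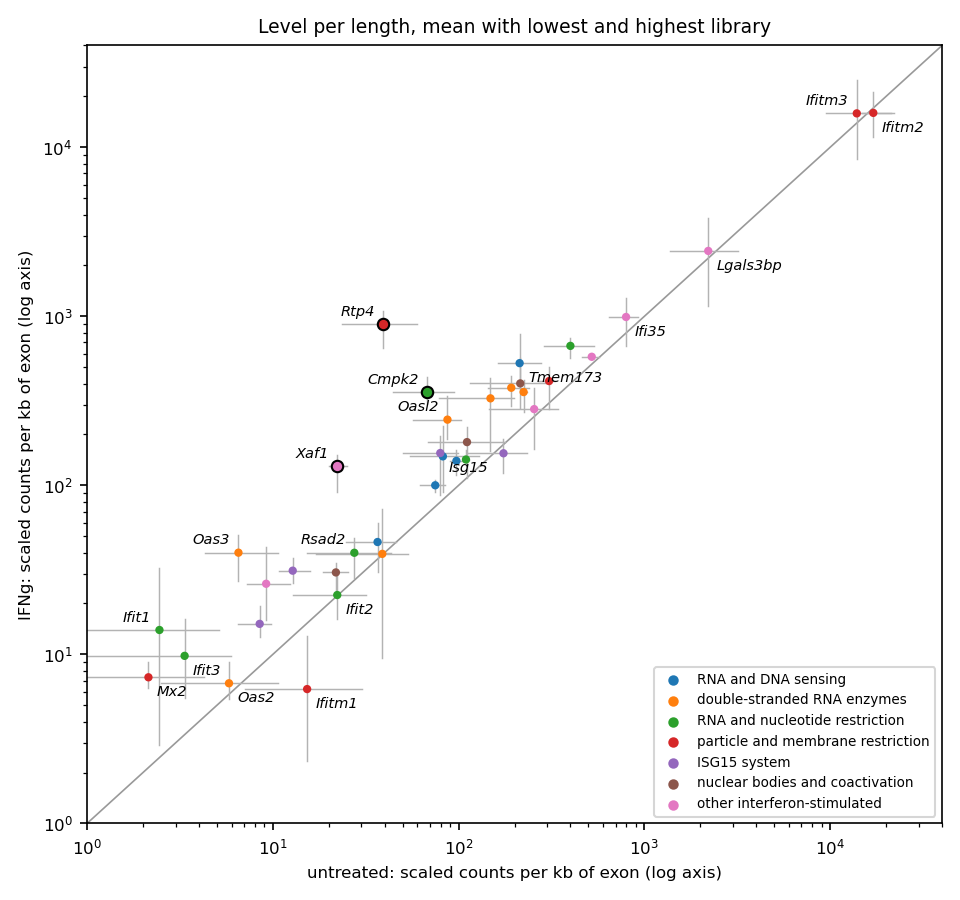
Mean level of the 38 tested antiviral genes per kb of exon in untreated (x axis) and IFNg libraries (y axis), both log axes in scaled counts per kb, with lines from the lowest to the highest of 3 libraries and colours for the roles (lines that reach 0 end at the axis). Outlined points are the called genes Rtp4, Cmpk2 and Xaf1, which lie above the line of equal levels, and Ifitm2 and Ifitm3 lie on it at the upper end.

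The pairs of libraries with neighbouring title numbers were also compared one by one. The difference in log2 was above 0 for 32 of 38 antiviral genes between IFNg 6 and untreated 5, for 36 between IFNg 2 and untreated 1 and for 29 between IFNg 10 and untreated 9. Over all tested genes these shares were 51.5%, 45.0% and 39.8%. Rtp4 had differences of 4.17, 4.79 and 4.75, Xaf1 of 2.54, 2.91 and 2.07, and Cmpk2 of 1.68, 2.77 and 2.86. Ifit3 and Mx2 owed their changes to the first pair (4.87 and 5.06, with 0 reads in untreated 5), and Ifit1 to the second. The GFP1 pair has 1 library per treatment, so it gives no test of its own. In a limma fit of the difference between the tags, 0 of 38 antiviral genes passed, as did 0% of the whole table, with a lowest adjusted p of 0.181 among the 38. Unadjusted, 3 of the 38 and 13.2% of all tested genes had a p under 0.05, and no other tool was run for it.

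**Figure D4:**
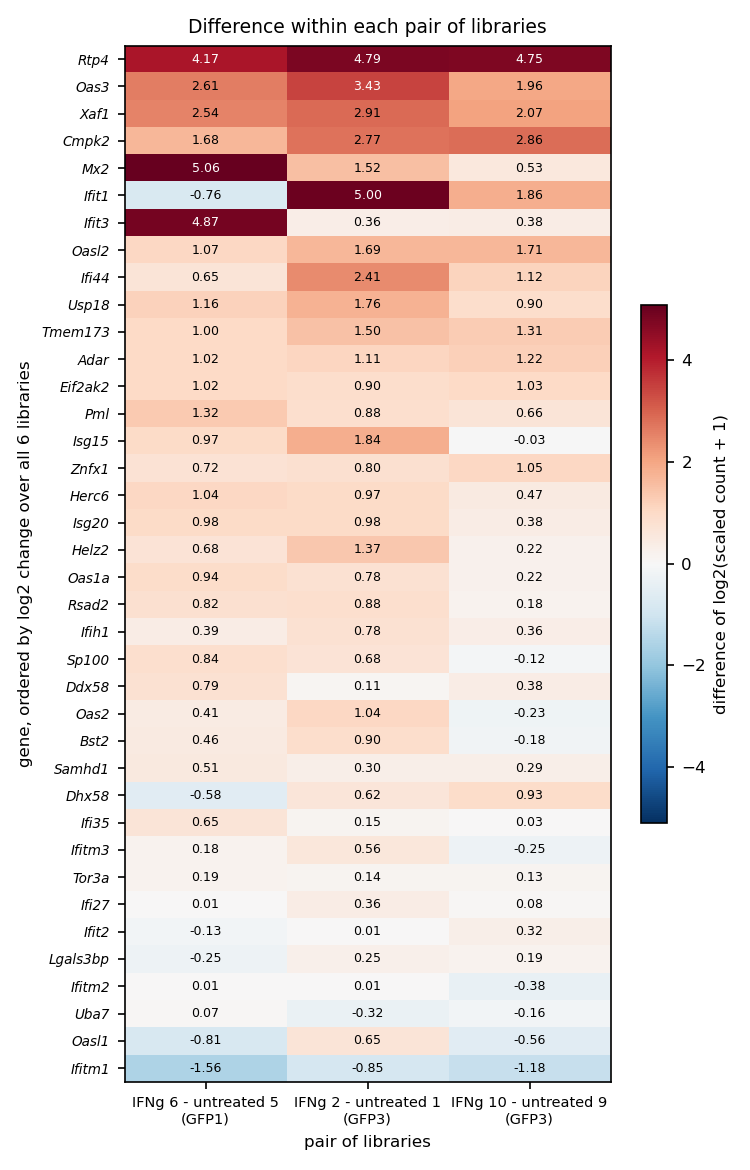
Difference in log2(scaled count + 1) between the IFNg and the untreated library of each of 3 pairs (columns, title tag in brackets) for the 38 tested antiviral genes (rows, ordered by the log2 change over all 6 libraries), with the value printed in each cell and red for higher with IFNg. Rtp4 is above 4 in every pair, while Ifit1, Ifit3 and Mx2 are dark in 1 pair only.

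The number of called antiviral genes depended on the libraries and the tool. It was 6 in the 4 GFP3 libraries alone, where Oas3, Oasl2 and Adar joined the 3 and 8.27% of all genes were called higher. It was 7 in DESeq2, where Oas3, Oasl2, Eif2ak2 and Tmem173 joined the 3 and 3.22% of all genes were called higher. Both shares are above the 0.416% of the fit of all libraries. It was 3 in edgeR, which called 0.373% of all genes higher, and 3 with the pairs as a block, which called 0.46%. Without untreated 1 or without IFNg 2 it was 1, Rtp4, where 0.311% and 0.249% of all genes were called higher. Without untreated 9 it was 2, Rtp4 and Oas3 (0.292% of all genes), and without IFNg 10 it was 2, Rtp4 and Xaf1 (0.273%). It was 3 without IFNg 6 (0.454%) and 4 without untreated 5 (2.27%). In the other fits it was 3 or 4, beside 0.312% of all genes with no filter on low values, 0.547% with a pseudocount of 10, 0.522% with TMM scaling and 0.671% with the tag as a covariate. No antiviral gene was called lower in any of the 14 alternatives. Of all genes, DESeq2 called 0.0563% lower, the GFP3 libraries 0.0746%, the fit with no filter 0.00866%, and the tag covariate and the fit without untreated 5 0.0186% each. The share was 0.00621% with the pair block and without any 1 of the other 5 libraries, and 0.0124% in the remaining fits.

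Genes that feed the antiviral program were taken from lists of sensor adaptors, interferon signalling, interferon ligands and other antiviral effectors. Of 64 such genes 53 were in the table and 48 were tested. Of the 48, 10 rose and 0 fell, beside 0.416% and 0.0124% of all tested genes. Their median log2 change was 1.14, against -0.078 for all tested genes. The lists were chosen with earlier results of these data known, so these counts are only a description. The ligand genes Ifnb1, Ifna1, Ifna2, Ifna4, Ifne, Ifnk, Ifnl2, Ifnl3 and Ifng were not analysed here.

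In the signalling list 5 of 12 rose, Irf1, Socs1, Irf9, Stat2 and Ifnar2, beside 0.416% of all tested genes. Irf9, the DNA-binding subunit of ISGF3, was at 924, 995 and 885 scaled counts without IFNg and at 4119.3, 4326 and 4119.3 with it, a 4.48-fold rise (limma adjusted p = 0.00321). Stat2 was at 123, 533 and 297 and then at 2302, 2548 and 2149.6, a 7.34-fold rise (limma adjusted p = 0.0333). With 1 library left out, the rise of Stat2 ran from 5.62-fold to 11.1-fold. Its call was lost with the pairs as a block (0.0691) and in edgeR (0.0554), as well as without untreated 9 (0.120), IFNg 6 (0.0670), IFNg 2 (0.157) or IFNg 10 (0.119).

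Irf1, the transcription factor of the second wave, rose 33.6-fold (limma adjusted p = 2.33e-05). The Jak inhibitor Socs1 rose 143-fold (limma adjusted p = 0.00124), or 96.4-fold to 344-fold with 1 library left out. The type I receptor chain Ifnar2 rose 4.48-fold (limma adjusted p = 0.0284), a call lost when untreated 1 (0.139), untreated 9 (0.149), IFNg 6 (0.0504), IFNg 2 (0.207) or IFNg 10 (0.104) was left out.

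None of the sensor adaptors and kinases, 0 of 11, passed by limma or by edgeR. DESeq2 called 3 of them higher, beside 3.22% of all genes, and 3 were higher at an unadjusted p under 0.05, beside 8.46%. Trim25, a ligase that activates RIG-I, missed the threshold at a log2 change of 1.52 (adjusted p = 0.152) and passed with the pairs as a block (0.0461). The adaptor Mavs had one of -0.46 (0.792) and Irf3, which it activates, one of -0.19 (0.923).

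Of 25 further antiviral effectors tested 5 rose, beside 0.416% of all tested genes. The 5 were Dtx3l (8.03-fold), Parp14 (13.0-fold), Slfn2 (10.2-fold), Trim21 (4.90-fold) and Parp9 (3.57-fold). Dtx3l and Parp9 form a ubiquitin ligase complex, Parp14 is a mono-ADP-ribosyltransferase, Slfn2 a schlafen protein and Trim21 a cytosolic antibody receptor. Parp9 missed the threshold in edgeR (limma adjusted p = 0.0446, edgeR 0.0660), and Parp14 with the pairs as a block (0.0563). With 1 library left out, Parp9 was called only without untreated 5, and its adjusted p otherwise ran from 0.0670 to 0.293. Slfn2 lost its call without untreated 1 (0.0527), untreated 9 (0.0512) or IFNg 2 (0.0579). Trim21 lost its call without untreated 9 (0.0867), IFNg 6 (0.0504), IFNg 2 (0.142) or IFNg 10 (0.0551). Beside these lists, the same fit called 12 of 15 tested GTPases of the guanylate-binding and immunity-related families higher, against 0.416% of all tested genes. Their median log2 change was 5.22, against -0.078 for all tested genes, and the difference between the lists was not tested.

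Depth and cell content were as follows. The libraries had 28508762 to 40224497 reads in genes, and 1 read was worth 0.853 to 1.05 scaled counts. The limit of 3 reads for a count of 0 covers counting error only. The first principal component (35.2% of the variance) separated the title tags and the second (28.8%) the treatments. Of 10 stem cell markers 5 had a log2 change above 0 and 5 below 0, and 0 passed in limma. Among them Smoc2 was at 9741 ± 4113 and 21417 ± 8213 scaled counts and Ascl2 at 358 ± 297 and 686 ± 158, without and with IFNg. The marker Olfm4 was at 249440.5 ± 25867 and 233547 ± 7644 scaled counts and Lgr5 at 5555 ± 2854 and 4167 ± 1488, without and with IFNg. The summed level of 12 leukocyte markers was 273 to 367 without and 202 to 351 with IFNg. Among them Cd68 had a mean of 180 and 177, and Ptprc one of 27.0 and 29.3. Paneth cell markers summed to 118320 to 368968 without and 34674 to 206400 with IFNg, and stem cell markers to 270272 to 306842 and 285857 to 290008. In untreated 9 the Paneth sum of 368968 was above the stem cell sum of 297501. Goblet markers summed to 66136 to 233374 and 76771 to 152745, and enterocyte markers to 20312 to 32756 and 18400 to 34300. For enteroendocrine markers the sums were 7592 to 23077 and 6342 to 19059. The part of these other cell types in the antiviral values was not tested.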

How the data were processed

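Libraries came from 2 ng of RNA per sample by SMART-Seq v4 amplification and KAPA Hyper preparation, per the labels' protocols, a chemistry that marks no strand and carries no molecular identifiers. The values are a signal the authors deposited for the whole series: read counts over 1 size factor per library. Per the submitters' processing notes, the build was mm10 and the tools, named without roles, were DESeq 1.22.1, HTSeq 0.5.3, STAR 2.5.0a and cutadapt 1.6. For the counted annotation a name is not given in the sources used here. Left out were the 4 rows of reads given to no gene (multiple alignments 18.5% to 25.0%, no feature 9.67% to 14.2%, not aligned 8.83% to 15.4%, ambiguous 0.948% to 1.20% of all values). Dividing by each library's smallest value returned whole reads (tolerance 0.01) in 100% of 138762 cases.

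The test was limma 3.58.1 (R 4.3.3) on log2(scaled count + 1), two-sided, with trended and robust variances. It ran on the 16095 genes whose mean reached 10, with Benjamini-Hochberg adjustment and a threshold of 0.05. For low genes, a log2 change on this scale can be larger or smaller than the one from DESeq2. Mx2 had 2.37 in limma and 1.80 in DESeq2, and Ifit1 had 2.03 and 2.54. A fold divides the mean level with IFNg by the mean level without it, in scaled counts. There were 14 alternatives, among them edgeR 4.0.16 and DESeq2 1.42.0 on recovered reads. Members and lists were chosen with earlier results of these data known. Values per library are given for genes that passed limma, the block, edgeR or DESeq2, and for the most abundant and lowest-changing gene of each role; further genes were added after their values were seen. Pathway genes that passed, Stat2 and Irf9 among them, are named; some named by the rule are not reported here. Promoters were to be shown for up to 3 called genes and the most abundant uncalled ones; Oas3 and Rsad2 stand in for Rtp4, which has no window, and Lgals3bp. Neighbouring title numbers within a tag (5 and 6, 1 and 2, 9 and 10) were taken as pairs by number, which the labels do not state to be a pairing. Their deviations from group means correlated at 0.302, 0.404 and 0.252 across genes.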

Additional observations from a re-analysis of the deposited data

How the results depend on the processing

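Of the alternatives, DESeq2 called 7 antiviral and 23 pathway genes higher and the GFP3 libraries alone 6 and 21, against 3 and 10 in the fit of all libraries; the shares of all genes called higher were 3.22%, 8.27% and 0.416%. Leaving out 1 library at a time gave 1 to 4 antiviral and 5 to 18 pathway genes, beside 0.249% to 2.27% of all genes. The pathway count was 18 without untreated 5 (2.27% of all genes called higher), 5 without untreated 9 (0.292%) and 5 without IFNg 2 (0.249%). It was 6 without IFNg 6 (0.454%) or IFNg 10 (0.273%). No antiviral gene was called lower in limma, edgeR, DESeq2 or any other fit run. With the pairs as a replicate block the counts were 3 and 9, beside 0.46% of all genes, and no antiviral gene changed its call. The log2 change of Oasl1 turned to 0.058 in DESeq2 and 0.042 in the GFP3 libraries, and that of Ifit2 to -0.019 in edgeR. With 1 library left out, the log2 change crossed 0 for Oas2 (-0.040 to 0.95), Oasl1 (-0.89 to 0.55), Ifit2 (-0.28 to 0.37), Ifitm2 (-0.35 to 0.092), Ifitm3 (-0.24 to 0.56), Uba7 (-0.42 to 0.11), Lgals3bp (-0.34 to 0.52) and Tor3a (-0.21 to 0.50). None of these 8 genes passed in any fit. The difference between the title tags stayed at 0 called antiviral genes under a pseudocount of 10, no filter and TMM scaling, alternatives chosen after seeing the data. For all of these shifts the cause was not tested. Genes under about 30 scaled counts, such as Ifit1, Ifit3, Mx2, Ifitm1 and Oas2, rest on few reads, and DESeq2 gave no adjusted p for Ifit3, Mx2 and Ifitm1.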

Other observations

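Ifitm3 was at 15032 and 17050.2 scaled counts in the 2 GFP1 libraries and at 5752 to 9471 in the 4 GFP3 libraries, whatever the treatment. Among partners that did not pass, Ifi204, a DNA-binding protein of the PYHIN family, was at 0 in all untreated libraries. With IFNg it was at 52.9, 40.5 and 13.2 (limma adjusted p = 0.113). Each 0 allows up to 3 reads, or 2.58 to 3.16 scaled counts. Its relative Ifi203 was at 1.05, 12.9 and 15.4 and then at 219, 173 and 153 (limma adjusted p = 0.0526). In untreated cells both genes averaged below the mean needed for testing, Ifi203 at 9.80. They reached that mean through the IFNg libraries, so their adjusted p-values are tied to the filter and serve only as a description. Oas1b, a relative of Oas1a, was at 26.3, 15.5 and 16.5 and then at 98.9, 98.3 and 116 (limma adjusted p = 0.0562). The annotation lists Oas1b as a polymorphic pseudogene, and its level is uncertain for the reason given for Oas1a.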
